A study of Mus musculus with 17 samples.

Results

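Adrenergic signalling in the heart was followed through 9 genes: the receptor genes *Adrb1*, *Adra1a* and *Adra1b*, the adenylyl cyclase genes *Adcy5* and *Adcy6*, the receptor kinase gene *Grk5*, the phosphodiesterase genes *Pde3a* and *Pde4d*, and *Prkaca*, which encodes the main catalytic subunit of protein kinase A. They were taken by gene name from a table of read counts for 56748 mouse genes, and all 9 were found. The table came from RNA sequencing of heart tissue from 17 mice aged between 12 and 16 months, 9 hMut and 8 Ctrl. The hMut (heart mutator) mice were on a C57BL/6N background and carried the inducible allele Polg iMut on both chromosomes together with 1 copy of Ckmm-cre. In the iMut allele a floxed wild-type *Polg* cassette stands in front of a proofreading-deficient sequence of the mitochondrial DNA polymerase, and Cre removes that cassette. The muscle creatine kinase promoter drives Cre in cardiac and skeletal muscle cells, so other cells of the heart are not its target. The control hearts are labelled Ctrl, with no genotype stated in the labels. The hearts were bulk tissue, in which fewer cells of a type and less RNA per cell cannot be told apart.

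Noradrenaline and adrenaline raise heart rate and contractile force mainly through the beta-1 adrenergic receptor on cardiomyocytes. The receptor acts through the stimulatory G protein on adenylyl cyclase, which makes cAMP, and cAMP frees the catalytic subunits of protein kinase A to phosphorylate calcium channels, phospholamban and sarcomere proteins. Phosphodiesterases break cAMP down, G protein-coupled receptor kinases such as GRK5 switch occupied receptors off, and alpha-1 receptors signal through Gq and phospholipase C instead. In the nucleus, protein kinase A phosphorylates CREB, which binds the cAMP response element.

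The stretches in front of 4 genes are shown because the results below turn on the first 3 of them as members and on the fourth as a CREB target, and because the letters that CREB binds can be looked for in them. They are the 250 bases before the RefSeq transcription start on build GRCm38.p6, which is not the GRCm39 build of the count table, and each is written 5′ to 3′ on the strand of its gene. Capitals mark the full cAMP response element TGACGTCA or its half-site TGACG, read on both strands, so that CGTCA is the half-site on the other strand. *Grk5* lies at chr19:60889499-60889748 on the plus strand, *Adrb1* at chr19:56721867-56722116 on the plus strand, *Prkaca* at chr8:83972728-83972977 on the plus strand and *Dio2* at chr12:90739039-90739288 on the minus strand.
Grk5: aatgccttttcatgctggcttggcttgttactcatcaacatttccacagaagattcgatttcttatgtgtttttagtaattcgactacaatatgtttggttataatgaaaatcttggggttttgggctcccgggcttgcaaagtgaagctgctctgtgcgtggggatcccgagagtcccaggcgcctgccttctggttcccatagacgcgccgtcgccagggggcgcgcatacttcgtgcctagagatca
Adrb1: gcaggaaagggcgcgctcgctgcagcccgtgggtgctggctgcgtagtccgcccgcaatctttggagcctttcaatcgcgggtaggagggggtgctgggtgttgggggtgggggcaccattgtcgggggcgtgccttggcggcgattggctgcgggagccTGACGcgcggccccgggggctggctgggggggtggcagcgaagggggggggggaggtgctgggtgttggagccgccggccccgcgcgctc
Prkaca: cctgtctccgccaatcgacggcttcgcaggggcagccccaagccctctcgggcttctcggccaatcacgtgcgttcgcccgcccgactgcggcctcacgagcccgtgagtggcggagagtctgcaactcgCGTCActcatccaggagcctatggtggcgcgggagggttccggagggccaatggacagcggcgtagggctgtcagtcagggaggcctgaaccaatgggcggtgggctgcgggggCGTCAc
Dio2: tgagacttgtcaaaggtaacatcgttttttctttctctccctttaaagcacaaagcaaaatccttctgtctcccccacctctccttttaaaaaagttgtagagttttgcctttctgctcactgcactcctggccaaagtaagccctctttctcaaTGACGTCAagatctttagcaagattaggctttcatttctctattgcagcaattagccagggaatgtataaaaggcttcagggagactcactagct

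The RefSeq table held 8 starts for 6 of the 9 members and none for *Adcy6*, *Adra1a* and *Pde3a*, so no stretch of *Adcy6* could be shown. Of the 8 stretches, 2 had the half-site. It began 90 bases upstream of the start in *Adrb1*, and 120 and 6 bases upstream in the *Prkaca* stretch shown. The stretch of a second *Prkaca* start, at chr8:83976633-83976882, held no half-site. No member stretch held the full element. The *Dio2* stretch held 1 full element, 95 bases upstream, and its 2 half-sites overlap within that palindrome. Over 32851 starts in the table, 17.8% of the 250-base stretches held the half-site and 1.55% the full element. Among other genes named below, the stretch of *Ppargc1a*, a CREB target that fell, held 1 half-site, 49 bases upstream, and no full element. The stretches of *Gnb1* and *Ric8b* held 2 half-sites each and that of *Maoa* 1, while that of *Gnaq* held none. These matches describe letters only.

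Depth was between 34425783 and 46486964 counted reads in the Ctrl and between 32915159 and 40175122 in the hMut libraries, and a total of 16195 genes passed the filter on low counts. Values are normalised read counts (CPM, counts scaled to a common total) on library sizes scaled by the trimmed mean of M-values. *Polg* itself was at 57.9 ± 6.08 CPM in hMut and 34.7 ± 7.31 CPM in Ctrl (SD, n = 9 and 8), with a log2 fold change, hMut over Ctrl, of 0.74 (SE, the standard error, 0.10, edgeR adjusted p = 0.000448), and a count per gene does not separate its alleles. Reads from genes encoded in mitochondrial DNA took 15.9 to 23.0% of the counts in hMut and 23.5 to 30.9% in Ctrl. With those genes left out before scaling, *Adcy6* and *Grk5* were called as in the main test. The 7 atrial markers summed to between 24.8 and 43.2 CPM in Ctrl, median 34.7, and between 34.2 and 67.0 CPM in hMut, median 45.1, highest in hMut replicate 9. Of them *Myl7* and *Sln* were near 0 in both groups, at means of 0.103 and 0.0441 CPM in Ctrl and 0.177 and 0.0423 CPM in hMut, *Bmp10* rose from 0.216 to 10.6 CPM (log2 fold change 5.58, adjusted p = 3.25e-05), and *Dkk3* was at 5.33 CPM in Ctrl and 10.95 CPM in hMut (adjusted p = 0.120). *Stard10*, the largest part of the sum, went the other way, at 27.7 CPM in Ctrl and 23.0 CPM in hMut (log2 fold change -0.27, adjusted p = 0.308). *Myl4* was at 1.51 and 1.67 CPM (0.14, adjusted p = 0.635) and *Dhrs9* at 0.126 and 0.453 CPM. The higher sum in hMut therefore came mainly from *Bmp10* and *Dkk3* and was not shared by the list. The 10 cardiomyocyte markers summed to between 37148 and 58049 CPM.

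The hearts hMut replicate 6 and hMut replicate 9 stood apart from the other 15. Their 10 cardiomyocyte markers summed to 39097 and 37148 CPM, against 48903 to 57200 CPM in the other hMut hearts and 48043 to 58049 CPM in Ctrl. Their 8 leukocyte markers summed to 961 and 487 CPM, against 175 to 283 CPM in Ctrl, and their fibroblast markers to 1289 and 1106 CPM, against 785 to 879 CPM in Ctrl. Between the groups none of the 10 cardiomyocyte, 8 leukocyte and 7 fibroblast markers was called, and 1 gene each rose among the atrial (*Bmp10*), endothelial (*Kdr*) and pericyte and smooth muscle (*Pdgfrb*) markers, while no adipocyte marker passed the filter. The part of these cells in the results was not tested. For 6 of the 9 members hMut replicate 6 was among the 2 lowest of all hearts, and for 7 of the 9 hMut replicate 9 was. Values without both hearts are therefore given beside the member and called pathway results.

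Of the 9 members, all of which passed the filter on low counts, *Adcy6* fell and *Grk5* rose at an adjusted p under 0.05 in edgeR's quasi-likelihood test. Of all tested genes 4.62% were called, 3.48% higher and 1.14% lower in hMut. With library sizes scaled on the cardiomyocyte markers 98.0% of calls were higher in hMut, against 75.3% here. At an unadjusted p under 0.05 there were 5 members, of which 4 were lower, against 25.8% of all tested genes. The log2 fold change was below 0 for 8 of the 9 members, against 49.5% of the 16195 tested genes, and the median over the members was -0.25, where that of all tested genes was 0.0023. Of the 8, *Adcy5* was at -0.01. Without hMut replicates 6 and 9, and with sex read from *Xist* and Y-linked counts as a covariate, 7 members were below 0. The members share their hearts, so they are not separate observations. With cardiomyocyte scaling, which moved the median of all genes to 0.24, 6 members were below 0 and 8 below that median. The hMut and Ctrl hearts overlapped for each of the 9 members, while they did not overlap for 0.605% of tested genes. The 10 cardiomyocyte markers had a median log2 fold change of -0.23 with none of them called, a value near that of the members. They did not move as 1: *Tnni3*, *Pln* and *Myh6* were at -0.43, -0.35 and -0.34. *Mb*, *Actc1* and *Ryr2* were at -0.03, -0.05 and -0.05. The median and the cardiomyocyte scaling thus depend on the markers taken, and no other marker set was tried.

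**Figure D1:**
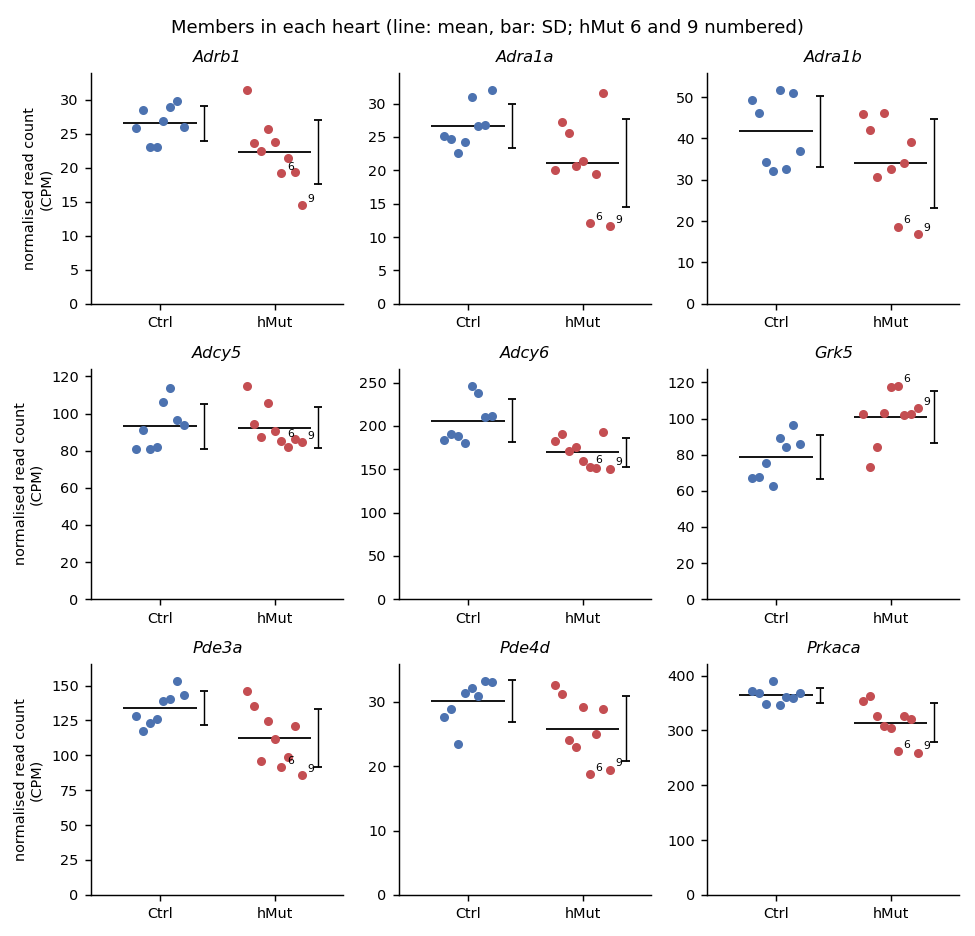
Normalised read counts (CPM, linear axes from 0) of the 9 members in 8 Ctrl and 9 hMut hearts, 1 point per heart, with the mean as a line and the SD as a bar. hMut replicates 6 and 9 are numbered and lie at the bottom for *Adra1a*, *Adra1b*, *Pde3a*, *Pde4d* and *Prkaca*, while 7 hMut hearts lie above every Ctrl heart for *Grk5*.

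*Adcy6* (chromosome 15, 98487854 to 98507957, minus strand) encodes adenylyl cyclase 6, one of the cyclases of cardiomyocytes. The Ctrl hearts were at 184, 190, 188, 180, 246, 238, 211 and 211 CPM in replicates 1 to 8. The hMut hearts were at 182, 190, 171, 175, 160, 153, 152, 193 and 150 CPM in replicates 1 to 9. All 9 hMut hearts were below the Ctrl median of 200.5 CPM and 6 were below every Ctrl heart, while replicates 1, 2 and 8, at 182, 190 and 193 CPM, lay within the Ctrl range. *Adcy6* fell by 17.7%, from 206 ± 25.2 to 170 ± 16.7 CPM (SD, n = 8 and 9), which was -0.28 on the log2 scale with an SE of 0.07 (edgeR adjusted p = 0.0357).

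The call for *Adcy6* was close to the threshold. Without hMut replicates 6 and 9 the log2 fold change was -0.24 (adjusted p = 0.0911), and the call was also lost without any 1 of Ctrl replicates 5, 6, 7 and 8 or hMut replicates 3, 5, 6, 7 and 9, where the log2 fold changes of all 17 fits that leave out 1 heart ran from -0.31 to -0.24 and the adjusted p reached 0.0750. Sex is not labelled. By *Xist* and Y-linked counts 5 Ctrl and 7 hMut hearts were male, and in these *Adcy6* was at 191 ± 12.2 and 167 ± 18.2 CPM (log2 fold change -0.19, adjusted p = 0.218), while the 3 female Ctrl hearts were at 232 ± 18.8 and the 2 female hMut hearts at 179 ± 5.17 CPM. With sex as a covariate the value was -0.25 (adjusted p = 0.0385). With library sizes scaled on the cardiomyocyte markers, it was -0.05 (adjusted p = 0.592).

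*Adcy5* (chromosome 16, 34975247 to 35126108, plus strand) encodes the other main cardiac cyclase. It was at 93.1 ± 12.1 CPM in Ctrl and 92.4 ± 11.0 CPM in hMut (SD, n = 8 and 9), with hearts between 80.8 and 114 CPM in Ctrl, median 92.4, and between 82.0 and 115 CPM in hMut, median 87.5. The log2 fold change was -0.01 with an SE of 0.08 (adjusted p = 0.942), and it was 0.022 without hMut replicates 6 and 9 (adjusted p = 0.919). Within each heart the ratio of *Adcy5* to *Adcy6* lay between 0.406 and 0.452 in the Ctrl hearts, around a median of 0.425, and between 0.424 and 0.595 in hMut, with 0.526 as the median. In 8 hMut hearts it was above the whole Ctrl range, and the exception was hMut replicate 8 at 0.424. Its log2 value was higher in hMut by 0.27 (exact two-sided permutation test over 24310 arrangements, p = 0.000576, adjusted over the 4 ratios tested p = 0.00230). It stayed past the threshold without hMut replicates 6 and 9 (0.26, adjusted p = 0.00435), in male hearts alone (0.22, adjusted p = 0.0152) and in all 17 tests that leave out 1 heart. A ratio within a heart shows unequal change of the pair and does not depend on the scaling of the library. The pairs were chosen with results of these data known, so that the ratio is not independent of the call for *Adcy6*.

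*Grk5* (chromosome 19, 60878187 to 61084406, plus strand) encodes a kinase that phosphorylates occupied receptors and is known to act in the nucleus of cardiomyocytes as well. The Ctrl hearts were at 67.0, 67.9, 75.3, 62.7, 89.3, 84.4, 96.3 and 85.9 CPM in replicates 1 to 8. The hMut hearts were at 102, 73.5, 84.3, 103, 118, 118, 102, 102 and 106 CPM in replicates 1 to 9. There were 7 hMut hearts above every Ctrl heart, replicate 3 lay within the Ctrl range, and replicate 2 was below the Ctrl median of 79.9 CPM. *Grk5* rose by 28.5%, from 78.6 ± 12.1 to 101 ± 14.3 CPM (SD, n = 8 and 9), which was 0.36 on the log2 scale with an SE of 0.10 (edgeR adjusted p = 0.0442).

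*Grk5* kept its direction in each fit run, while the call and the size depended on the fit. Over the 17 fits that leave out 1 heart the log2 fold change ran from 0.32 to 0.41, and the call remained without Ctrl replicate 7 or hMut replicates 1, 2 or 3 and was lost without any 1 of the others, with an adjusted p of at most 0.0839. Without hMut replicates 6 and 9 it was 0.32 (adjusted p = 0.103), and with sex as a covariate 0.40 (adjusted p = 0.0267). Male hearts were at 71.8 ± 9.10 CPM in Ctrl and 101 ± 16.5 CPM in hMut (0.48, adjusted p = 0.0841), and female hearts at 90.02 ± 5.97 and 103 ± 0.478 CPM (n = 3 and 2), which is 0.19 for the log2 of the ratio of means, against 0.49 in males, and the difference between the sexes was not tested. Scaled on cardiomyocyte markers *Grk5* was higher in hMut by 0.62 on the log2 scale (adjusted p = 0.0181), against 0.24 for the median of all genes. *Zfp950* overlaps *Grk5* on the opposite strand, with a mean of 551 counts against 3445 for *Grk5*, and its log2 fold change was -0.14 (adjusted p = 0.310).

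No other gene of the receptor kinase group passed the threshold. *Grk2*, the kinase best known for acting on beta receptors in the heart, differed by 0.02 on the log2 scale with an SE of 0.04 (adjusted p = 0.780), at 68.8 ± 4.51 CPM in hMut and 67.9 ± 2.73 CPM in Ctrl. *Grk3* was at 0.02 (adjusted p = 0.905), *Grk4* at 0.14 (adjusted p = 0.453) and *Grk6* at -0.04 (adjusted p = 0.704). *Rgs4* was at 0.32 (adjusted p = 0.0593), *Rgs16* at 0.68 (adjusted p = 0.158), and the arrestin genes *Arrb1* and *Arrb2* at 0.21 and 0.44 (adjusted p = 0.152 and 0.208). Of the 16 receptor kinase, arrestin and RGS genes tested, 1 rose, *Grk5*, and none fell, with a median log2 fold change of 0.11.

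*Adrb1* (chromosome 19, 56710631 to 56721545, plus strand) encodes the beta-1 receptor. The Ctrl hearts lay between 23.1 and 29.7 CPM, median 26.5, and the hMut hearts between 14.5 and 31.4 CPM, median 22.5. The lowest of all hearts was hMut replicate 9 and the highest was hMut replicate 1, with 5 hMut hearts below every Ctrl heart. The means were 22.4 ± 4.72 CPM in hMut and 26.5 ± 2.54 CPM in Ctrl (SD, n = 9 and 8), and the log2 fold change of -0.25 (SE 0.11) did not pass the threshold (adjusted p = 0.172). Without hMut replicates 6 and 9 it was -0.15 (adjusted p = 0.379). By sex read from *Xist* and Y-linked counts, male hearts were at 25.3 ± 2.30 CPM in Ctrl and 20.6 ± 3.26 CPM in hMut (n = 5 and 7). Female hearts were at 28.55 ± 1.44 and 28.56 ± 4.01 CPM (n = 3 and 2), and the difference between the sexes was not tested.

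The ratio of *Grk5* to its receptor in the same heart sets the member that rose against 1 with a lower mean in hMut, and the pair was chosen with results of these data known, so its test is not independent evidence. The ratio of *Grk5* to *Adrb1* lay between 1.14 and 1.59 in the Ctrl hearts, around a median of 1.47, and between 1.49 and 3.50 in hMut, with 2.28 as the median. All 9 hMut hearts were above the Ctrl median and 7 were above every Ctrl heart, with the highest ratios in hMut replicates 9 and 6, at 3.50 and 2.95. The log2 ratio was higher in hMut by 0.63 (exact two-sided permutation test, p = 0.00136, adjusted over 4 ratios p = 0.00271), by 0.47 without hMut replicates 6 and 9 (adjusted p = 0.00684) and by 0.79 in male hearts alone (adjusted p = 0.0152). The female hearts lay closer together, at 1.59, 1.40 and 1.55 in Ctrl replicates 5, 6 and 7 and at 1.56 and 1.92 in hMut replicates 1 and 4.

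*Adra1a* (chromosome 14, 66872700 to 67008617, plus strand) and *Adra1b* (chromosome 11, 43665433 to 43792037, minus strand) encode the alpha-1A and alpha-1B receptors of cardiomyocytes. *Adra1a* lay between 22.5 and 31.995 CPM in Ctrl, median 25.9, and between 11.6 and 31.6 CPM in hMut, median 20.6. *Adra1b* lay between 32.2 and 51.6 CPM in Ctrl, median 41.5, and between 16.8 and 46.1 CPM in hMut, median 34.1. For both genes hMut replicates 6 and 9 were the lowest of all hearts, at 12.0 and 11.6 CPM for *Adra1a* and at 18.5 and 16.8 CPM for *Adra1b*. The log2 fold changes of -0.34 (SE 0.16, adjusted p = 0.196) and -0.30 (SE 0.19, adjusted p = 0.310) did not pass the threshold, and without both hearts they were -0.17 and -0.11 (adjusted p = 0.400 and 0.668). The log2 ratio of *Adra1a* to *Adra1b* differed by -0.05, hMut minus Ctrl (exact two-sided permutation test, p = 0.746, adjusted over 4 ratios p = 0.746).

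Among further adrenergic receptor genes, *Adra1d* was at 3.27 ± 1.16 CPM in hMut and 4.30 ± 1.05 CPM in Ctrl (log2 fold change -0.39, adjusted p = 0.212). *Adra2b* and *Adra2c* were each under 1 CPM on average in both groups. *Adra2a* and *Adrb3* did not pass the filter on low counts, with at most 12 and 11 counts in any heart. None of the 7 tested genes of this list was called, and their median log2 fold change was -0.25.

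*Prkaca* (chromosome 8, 84699622 to 84723072, plus strand) was the most abundant member and the nearest to the threshold among those not called. The Ctrl hearts were at 372, 369, 349, 390, 346, 361, 359 and 369 CPM in replicates 1 to 8. The hMut hearts were at 354, 363, 326, 308, 305, 262, 327, 321 and 259 CPM in replicates 1 to 9. All 9 hMut hearts were below the Ctrl median of 365 CPM and 7 were below every Ctrl heart, the exceptions being replicates 1 and 2. The means were 314 ± 35.8 CPM in hMut and 364 ± 13.9 CPM in Ctrl (SD, n = 9 and 8), and the log2 fold change was -0.22 with an SE of 0.06 (adjusted p = 0.0529). It passed the threshold in DESeq2 (adjusted p = 0.0215) and without hMut replicate 1 or 2 (-0.24 without replicate 2), and did not without hMut replicates 6 and 9 (-0.15, adjusted p = 0.0799). Scaled on the cardiomyocyte markers it was 0.0059 (adjusted p = 0.922), so that *Prkaca* differed between the groups by about as much as the mean of those markers.

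The other subunit genes of protein kinase A lay on both sides of 0. *Prkacb*, the second catalytic subunit, was at 84.6 ± 3.65 CPM in hMut and 84.6 ± 3.94 CPM in Ctrl (log2 fold change 0.0002, adjusted p = 0.999), and the regulatory subunit gene *Prkar1a* at 908 ± 167 and 796 ± 70.3 CPM (0.19, adjusted p = 0.210). The inhibitor gene *Pkig* was at 159 ± 12.5 and 177 ± 8.38 CPM (-0.16, adjusted p = 0.0628). None of the 9 genes of the list was called, and 4 had an unadjusted p under 0.05, against 25.8% of all tested genes.

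*Pde3a* (chromosome 6, 141194995 to 141453174, plus strand) and *Pde4d* (chromosome 13, 108586482 to 110089995, plus strand) encode cAMP phosphodiesterases that act near phospholamban and the ryanodine receptor. *Pde3a* lay between 118 and 153 CPM in Ctrl, median 134, and between 85.5 and 146 CPM in hMut, median 112, with 5 hMut hearts below every Ctrl heart. *Pde4d* lay between 23.5 and 33.2 CPM in Ctrl, median 31.2, and between 18.7 and 32.7 CPM in hMut, median 25.0, with 3 hMut hearts below every Ctrl heart. The log2 fold changes were -0.25 (SE 0.10, adjusted p = 0.121) for *Pde3a* and -0.22 (SE 0.11, adjusted p = 0.198) for *Pde4d*, and -0.17 and -0.12 without hMut replicates 6 and 9 (adjusted p = 0.285 and 0.480). *Pde3a* was called with limma-voom and sample quality weights (adjusted p = 0.0344) and without hMut replicate 1 (-0.31, adjusted p = 0.0443). The ratio of *Pde3a* to *Pde4d* was 4.10 in hMut and 4.20 in Ctrl (geometric means), a log2 difference of -0.03 (exact two-sided permutation test, p = 0.642, adjusted over 4 ratios p = 0.746). None of the 19 phosphodiesterase genes tested was called. *Pde4a* was at 72.9 ± 16.5 CPM in hMut and 90.6 ± 6.21 CPM in Ctrl (-0.31, adjusted p = 0.103), *Pde4b* at 38.8 ± 2.64 and 36.3 ± 2.89 CPM (0.10, adjusted p = 0.243), and *Pde11a*, which had the smallest p of the list, at 3.30 ± 0.575 and 4.72 ± 1.49 CPM (-0.52, adjusted p = 0.0854).

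**Figure D2:**
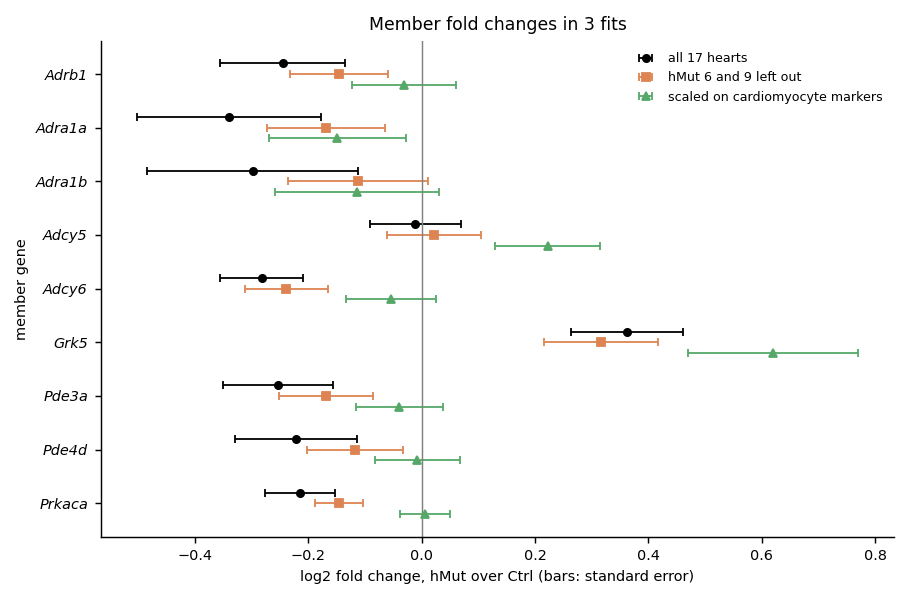
Log2 fold change of each member, hMut over Ctrl, with its standard error, from the fit over 17 hearts, from the fit without hMut replicates 6 and 9 and from the fit with library sizes scaled on cardiomyocyte markers. Without hMut replicates 6 and 9 the values of *Adra1a* and *Adra1b* moved from -0.34 and -0.30 to -0.17 and -0.11, and the marker scaling moved those of *Adcy6* and *Prkaca* to -0.05 and 0.0059 and that of *Grk5* to 0.62.

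**Figure D3:**
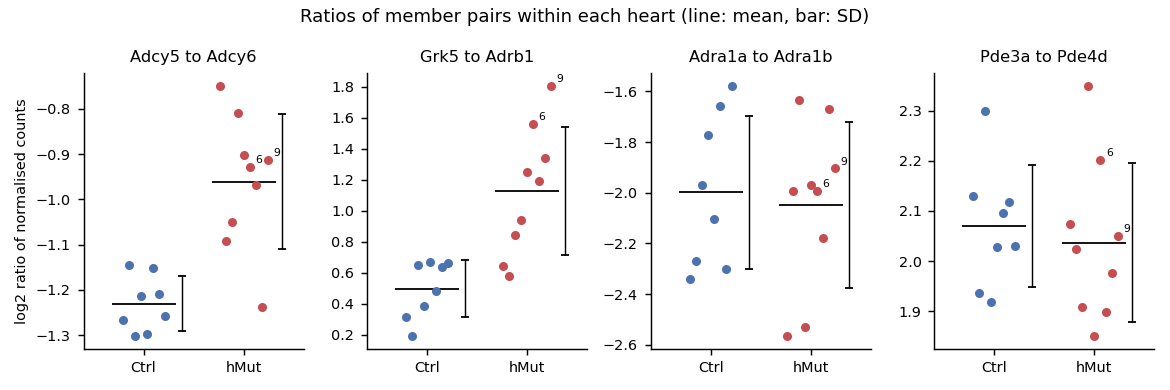
Log2 ratio of the normalised counts of 2 members within each heart, 1 point per heart, with the mean as a line and the SD as a bar, on axes that do not start at 0. The hMut hearts lie higher by 0.27 for *Adcy5* to *Adcy6* and by 0.63 for *Grk5* to *Adrb1*, and the groups overlap over most of their range for the other pairs.

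Levels between members can be compared only per length of the gene model. In Ctrl hearts *Prkaca* was at 146 ± 5.59 CPM per kilobase, *Adcy6* at 30.4 ± 3.71, *Adcy5* at 13.0 ± 1.68, *Adra1b* at 12.3 ± 2.54, *Grk5* at 11.1 ± 1.72, *Pde3a* at 10.5 ± 0.939, *Adrb1* at 7.84 ± 0.751, *Adra1a* at 3.05 ± 0.378 and *Pde4d* at 2.51 ± 0.274 CPM per kilobase (SD, n = 8). The ranges of neighbours in this order were separate for *Prkaca* and *Adcy6*, *Adcy6* and *Adcy5*, *Pde3a* and *Adrb1*, and *Adrb1* and *Adra1a*. The 4 levels from *Adcy5* to *Pde3a* overlapped. In hMut hearts *Grk5*, at 14.3 ± 2.03 CPM per kilobase, had a higher mean than *Adcy5*, at 12.9 ± 1.54 CPM per kilobase, with overlapping ranges. *Adra1b* was above *Grk5* in 5 of 8 Ctrl hearts and in 1 of 9 hMut hearts.

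**Figure D4:**
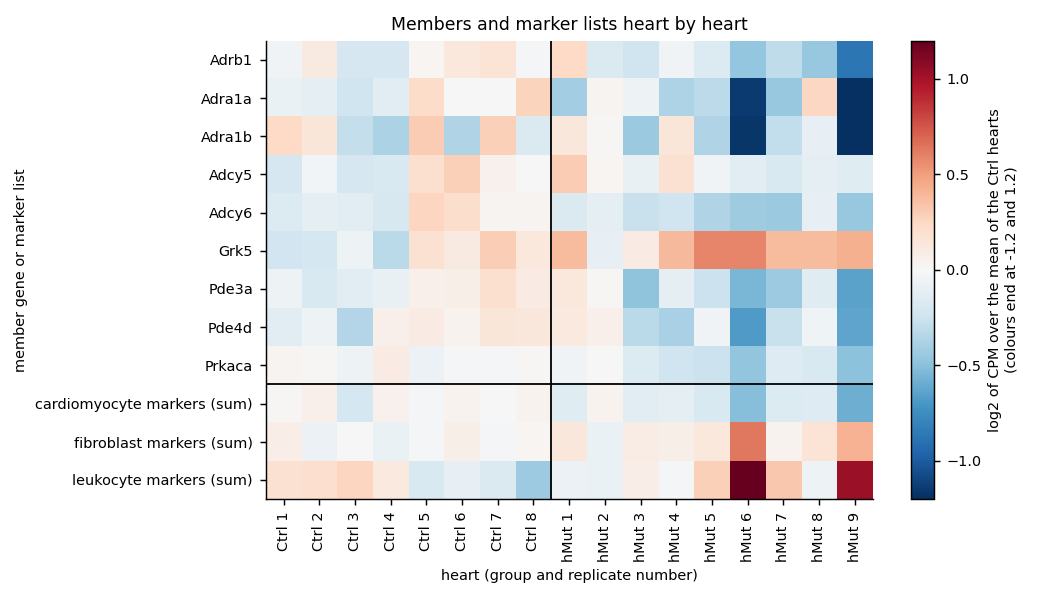
Log2 of CPM over the mean of the Ctrl hearts for the 9 members and for the summed cardiomyocyte, fibroblast and leukocyte markers in each of 17 hearts, with blue below and red above that mean and colours ending at -1.2 and 1.2. hMut replicates 6 and 9 are blue for 8 of the members and for the cardiomyocyte markers, and red for *Grk5* and for the fibroblast and leukocyte markers.

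Across the pathway the 9 members are part of 13 lists with 185 genes, of which 173 passed the filter on low counts. Of these 5 rose and 4 fell, which is 5.20% of those tested, and without the members 4 rose and 3 fell of 164, which is 4.27%. This share is near the 4.62% called among all genes. For these 173 the log2 fold changes had a median of -0.0144.

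The strongest difference of the pathway was in the breakdown of catecholamines. *Maoa* (chromosome X, 16485937 to 16554057), which encodes monoamine oxidase A of the outer mitochondrial membrane, lay between 4.08 and 7.29 CPM in Ctrl, median 6.40, and between 7.29 and 53.5 CPM in hMut, median 25.0. All hMut hearts but replicate 2, at 7.29 CPM, were above every Ctrl heart. *Maoa* rose by 2.16 on the log2 scale (SE 0.28, adjusted p = 0.000142), from 6.25 ± 0.984 to 28.0 ± 13.8 CPM (SD, n = 8 and 9), and passed the threshold in each of the 17 fits that leave out 1 heart and without hMut replicates 6 and 9 together (2.17, adjusted p = 0.000279). It was not highest in the hearts with the lowest receptors: hMut replicates 6 and 9 were at 23.6 and 30.7 CPM, and hMut replicates 5 and 7 at 53.5 and 44.2 CPM. *Maob*, the other monoamine oxidase, was at 60.1 ± 14.0 CPM in hMut and 76.3 ± 3.85 CPM in Ctrl (-0.34, adjusted p = 0.0911). *Maoa* was 1 of 9 tested genes called in its list, and *Th*, *Slc6a2* and *Npy* of sympathetic nerves did not pass the filter, while none of 4 tested nerve and Schwann cell markers was called.

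Among CREB and its target genes, 1 of 16 rose and 1 fell. *Dio2* (chromosome 12, 90691326 to 90705812), the deiodinase that activates thyroid hormone, lay between 1.19 and 2.30 CPM in Ctrl, median 1.47, and between 1.16 and 11.9 CPM in hMut, median 4.09. Its highest values were in hMut replicates 6 and 9, both at 11.9 CPM, and hMut replicate 2 was below every Ctrl heart. *Dio2* rose by 1.66 on the log2 scale (SE 0.38, adjusted p = 0.0179), and by 0.98 without hMut replicates 6 and 9 (adjusted p = 0.0266). *Ppargc1a* (chromosome 5, 51611592 to 51725068), the coactivator of mitochondrial biogenesis, fell from 96.9 ± 6.56 to 79.3 ± 7.87 CPM (SD, n = 8 and 9), which was -0.29 on the log2 scale with an SE of 0.06 (adjusted p = 0.00812), with 8 of 9 hMut hearts below every Ctrl heart. Without hMut replicates 6 and 9 its value was -0.25 (adjusted p = 0.0209), and scaled on cardiomyocyte markers -0.06 (adjusted p = 0.484). The immediate early genes *Fos* (-0.47, adjusted p = 0.566), *Nr4a1* (-0.28, adjusted p = 0.529) and *Nr4a3* (0.75, adjusted p = 0.173) did not pass the threshold, nor did *Creb1* (-0.08, adjusted p = 0.397).

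The G protein list held 3 called genes of 19 tested. *Gnaq*, the G protein alpha subunit used by alpha-1 receptors, rose from 35.9 ± 0.849 to 39.9 ± 2.06 CPM (SD, n = 8 and 9), which was 0.15 on the log2 scale with an SE of 0.04 (adjusted p = 0.0212), with 8 of 9 hMut hearts above every Ctrl heart. *Gnb1*, a beta subunit, rose from 120 ± 3.75 to 139 ± 13.9 CPM (0.21, SE 0.05, adjusted p = 0.0336). *Ric8b*, a chaperone of the stimulatory alpha subunit, fell from 53.2 ± 2.66 to 40.6 ± 7.54 CPM (-0.39, SE 0.09, adjusted p = 0.0243), with its lowest values in hMut replicates 6 and 9, at 27.1 and 33.3 CPM. Without those hearts *Ric8b* was at -0.29 (adjusted p = 0.0132), *Gnaq* at 0.13 (adjusted p = 0.0636) and *Gnb1* at 0.15 (adjusted p = 0.0708). With 1 heart left out, the call for *Gnaq* was lost without Ctrl replicate 7 (0.14), that for *Ric8b* without Ctrl replicate 8 or hMut replicate 5 (both -0.38), and that for *Gnb1* without any 1 of Ctrl replicates 2, 5, 6, 7 and 8 or hMut replicates 5, 6, 7 and 9 (0.18 to 0.21). *Gnas*, which encodes the stimulatory alpha subunit itself, was at 49.8 ± 5.69 CPM in hMut and 51.9 ± 5.30 CPM in Ctrl (-0.06, adjusted p = 0.612).

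Of 16 protein kinase A substrates of cardiomyocytes only *Kcnq1* (chromosome 7, 142660099 to 142980779), a subunit of the slow delayed rectifier channel, was called. It fell from 46.0 ± 5.59 to 36.8 ± 5.49 CPM (SD, n = 8 and 9), which was -0.32 on the log2 scale with an SE of 0.09 (adjusted p = 0.0493), and was not called without hMut replicates 6 and 9 (-0.25, adjusted p = 0.104) or with cardiomyocyte scaling (-0.10, adjusted p = 0.270). With 1 heart left out, the call was lost without any 1 of Ctrl replicates 2, 5, 6, 7 and 8 or hMut replicates 3, 5, 6, 7, 8 and 9, over a range of -0.36 to -0.28 in all 17 such fits. Its antisense neighbour *Kcnq1ot1* had a mean of 69.3 counts against 1546 for *Kcnq1*. *Pln*, which encodes phospholamban, was at 1487 ± 307 CPM in hMut and 1890 ± 103 CPM in Ctrl (-0.35, adjusted p = 0.0689), *Tnni3*, cardiac troponin I, at 2410 ± 621 and 3243 ± 308 CPM (-0.43, adjusted p = 0.0629), and *Cacna1c*, the L-type calcium channel, at 235 ± 16.0 and 263 ± 25.6 CPM (-0.16, adjusted p = 0.108). *Ryr2* was at -0.05 (adjusted p = 0.803). The list had a median log2 fold change of -0.13, with 7 of 16 genes at an unadjusted p under 0.05, against 25.8% of all tested genes. *Pln*, *Tnni3* and *Ryr2* are also among the 10 cardiomyocyte markers, so their values are not separate from those of the markers.

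**Figure D5:**
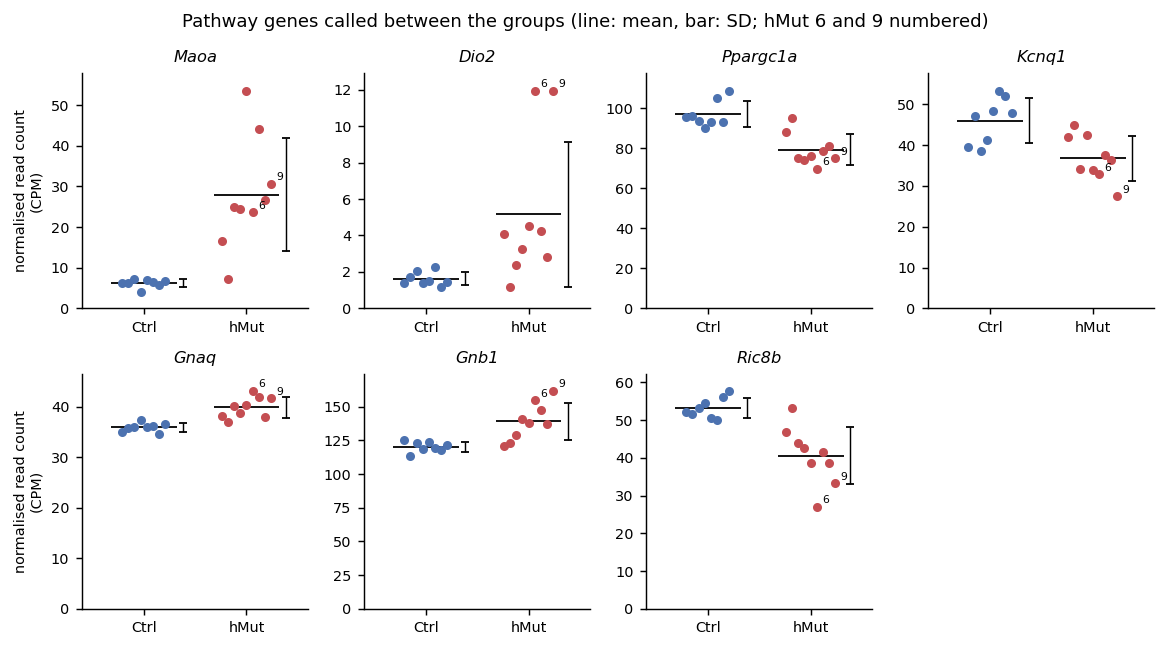
Normalised read counts (CPM, linear axes from 0) of the 7 called pathway genes that are not members, in 8 Ctrl and 9 hMut hearts, with the mean as a line and the SD as a bar. *Maoa* rose from 6.25 to 28.0 CPM on average with hMut replicate 2 at the Ctrl level, and hMut replicates 6 and 9 are the 2 highest hearts for *Dio2*.

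Among the adenylyl cyclases 1 of 8 tested genes was called, *Adcy6*. *Adcy9*, also present in cardiomyocytes, was at 25.9 ± 5.40 CPM in hMut and 29.7 ± 3.58 CPM in Ctrl (-0.20, adjusted p = 0.291), and *Adcy7*, known from leukocytes, at 25.5 ± 16.2 and 17.3 ± 2.23 CPM (0.57, adjusted p = 0.178). No gene was called among 18 tested receptors of other ligands coupled to cAMP, 13 A-kinase anchoring proteins, 8 other cAMP effectors and 15 effectors of alpha-1 receptors. Their smallest p values belonged to *Adora2a* (0.27, adjusted p = 0.0857), *Akap8* (-0.14, adjusted p = 0.118), *Popdc3* (0.28, adjusted p = 0.0612) and *Plcb4* (-0.17, adjusted p = 0.0836). *Chrm2*, the muscarinic receptor that opposes beta-receptor signalling, was at 136 ± 32.03 CPM in hMut and 173 ± 14.9 CPM in Ctrl (-0.35, adjusted p = 0.100).

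After the mean of each group was subtracted from log2 CPM, the tested genes most like each of *Adcy6*, *Grk5* and *Prkaca* over the 17 hearts were named by Pearson's r as a description, since all points share their libraries. For *Adcy6* they were *Zfp46* (r = 0.93, Spearman's rho = 0.92), *Setbp1* (r = 0.90, rho = 0.90) and *Cc2d2a* (r = 0.89, rho = 0.91). For *Grk5* they were *Gm15270* (r = 0.87, rho = 0.78), *Dstn* (r = 0.86, rho = 0.84) and *Tuba1b* (r = 0.85, rho = 0.84). For *Prkaca* they were *Slc25a4*, the adenine nucleotide carrier of heart mitochondria (r = 0.96, rho = 0.91), *Eid2b* (r = 0.96, rho = 0.86) and *Myl2*, the ventricular myosin light chain and 1 of the cardiomyocyte markers (r = 0.95, rho = 0.84). Without hMut replicates 9 and 6, the hearts farthest from the median of *Prkaca*, r was 0.90, 0.88 and 0.87. For *Grk5* without hMut replicate 2 and Ctrl replicate 4 r was 0.78, 0.78 and 0.75, and for *Adcy6* without Ctrl replicates 5 and 4 it was 0.93, 0.90 and 0.87.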

How the data were processed

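Total RNA was extracted from 17 hearts, and poly(A) libraries were sequenced on the NovaSeq X Plus platform. According to the study's methods and processing notes the authors used fastp for trimming, HISAT2 2.2.1 for alignment against GRCm39, and made the deposited read counts per gene with featureCounts 2.0.6. The annotation release and the strand setting are not given in the sources used here, so reads of genes that overlap on opposite strands may be shared. The deposited gene length, another column of the same table, was used for CPM per kilobase. No other per-sample column was left over.

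The counts were tested with edgeR 4.0.16 (R 4.3.3) by glmQLFit and glmQLFTest on TMM-scaled libraries after filterByExpr (16195 of 56748 genes), with Benjamini-Hochberg adjustment over all tested genes and a threshold of 0.05. The study's own tool, DESeq2 1.42.0, and limma 3.58.1 served as alternatives. In data simulated for this comparison on 16195 genes, 160 of 200 genes changed 2-fold were called. The members, lists, ratios and alternatives were chosen with earlier results of these data known. Named genes are the members, *Polg*, each called gene of a pathway list or, with none called, its smallest p, and for each of the 3 members with the smallest p the 3 genes most like it. Genes added for context (*Grk2*, *Grk3*, *Grk4*, *Grk6*, *Rgs4*, *Rgs16*, *Arrb1*, *Arrb2*, *Adra1d*, *Adra2a*, *Adra2b*, *Adra2c*, *Adrb3*, *Prkacb*, *Prkar1a*, *Pkig*, *Pde4a*, *Pde4b*, *Maob*, *Fos*, *Nr4a1*, *Nr4a3*, *Creb1*, *Gnas*, *Pln*, *Tnni3*, *Cacna1c*, *Ryr2*, *Adcy9*, *Adcy7*, *Chrm2*, and the markers *Myl7*, *Sln*, *Myl4*, *Bmp10*, *Dkk3*, *Stard10*, *Dhrs9*, *Myh6*, *Mb*, *Actc1*, *Kdr*, *Pdgfrb*) were named after their values were seen. Ratios within a heart were tested with an exact permutation test. The labels name separate hearts, and same-numbered hearts did not deviate together. Nothing was imputed and no heart was dropped from the main test.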

Additional observations from a re-analysis of the deposited data

Results flagged for a closer look

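Over 52 groups of hearts, the members, named genes and ratios in both conditions, a heart lay far from the others of its group by Dixon's criterion in 2, and chance alone gives about 1 in 20. *Maoa* was at 4.08 CPM in Ctrl replicate 4, where the nearest Ctrl heart was at 5.80 CPM. *Akap8*, an A-kinase anchoring protein gene, was at 61.3 CPM in hMut replicate 9, where the nearest hMut heart was at 53.8 CPM. No member was among them.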

How the results depend on the processing

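The log2 fold changes of *Adrb1*, *Adra1a*, *Adra1b*, *Adcy6*, *Pde3a* and *Pde4d* stayed below 0 and that of *Grk5* above 0 in the 12 alternative fits and in the 17 that leave out 1 heart, but with cardiomyocyte scaling they were far nearer 0 for *Adrb1* (-0.030), *Pde3a* (-0.039), *Pde4d* (-0.0074), *Adra1a* (-0.15) and *Adra1b* (-0.11). The ratios of *Adcy5* to *Adcy6* and of *Grk5* to *Adrb1* stayed past the threshold in every alternative run for them, with the limit that the pairs were chosen with results known. Counts of calls moved most. Of all genes 749 were called in the main test, 1524 in DESeq2, 463 with no filter on low counts, 195 with the replicate block, 2081 in limma-voom, 5172 with cardiomyocyte scaling, 431 without hMut replicates 6 and 9, 139 in male hearts alone and 395 to 1792 with 1 heart left out. Members called numbered 2 in the main test, 4 in limma-voom, 1 with cardiomyocyte scaling, 0 with no filter, with the block, without hMut replicates 6 and 9 and in male hearts, and 0 to 4 with 1 heart left out. Pathway genes called numbered 9 in the main test, 20 in DESeq2, 4 with no filter, 1 with the block, 29 in limma-voom, 42 with cardiomyocyte scaling, 5 without hMut replicates 6 and 9, 2 in male hearts and 4 to 23 with 1 heart left out. Among the fits that leave out 1 heart, the most calls came without hMut replicate 2 (1792 genes and 23 pathway genes), and the fewest without hMut replicate 5 (395 genes and 4 pathway genes), with 4 pathway genes also without Ctrl replicate 8. Leaving out hMut replicate 1, 2 or 8 gave more calls than the main test (1182, 1792 and 874 genes). Leaving out any other single heart gave fewer, and the cause of these shifts was not tested. *Adcy6* was no longer called with no filter (-0.28), with the block (-0.26), with cardiomyocyte scaling (-0.054), without hMut replicates 6 and 9 (-0.24) and in male hearts (-0.19), and ran from -0.31 to -0.24 with 1 heart left out. *Grk5* was no longer called with upper-quartile normalisation (0.34), no filter (0.36), the block (0.35), without hMut replicates 6 and 9 (0.32) and in male hearts (0.48), and ran from 0.32 to 0.41. *Prkaca* was called in DESeq2 (-0.22), with upper-quartile normalisation (-0.23), with a mean of at least 100 counts (-0.22) and in limma-voom (-0.18), was 0.0059 with cardiomyocyte scaling, and ran from -0.24 to -0.18. *Pde3a* was called in limma-voom (-0.27) and ran from -0.31 to -0.21. *Adcy5*, never called, changed sign with sex as a covariate (0.037), the block (0.0051), cardiomyocyte scaling (0.22), without hMut replicates 6 and 9 (0.022) and in male hearts (0.023), and ran from -0.056 to 0.034. The log2 ratio of *Adra1a* to *Adra1b* was 0.080 in male hearts and ran from -0.10 to 0.015, and that of *Pde3a* to *Pde4d* ran from -0.072 to 9.09e-05. Upper-quartile normalisation, cardiomyocyte scaling and male hearts alone were chosen after seeing the data. The hearts left out together, hMut replicates 6 and 9, were also picked from their values in these data. Cardiomyocyte scaling raised the share of calls that were higher in hMut from 75.3 to 98.0%, limma-voom lowered it to 56.5%, leaving out hMut replicate 2 to 62.9%. The replicate numbers do not pair the hearts: the deviations of same-numbered hearts from their group means had correlations from -0.225 to 0.339, and 1 of 8 hMut hearts correlated best with its own number.

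All members had at least 508 counts in each heart, so counting error was small beside the spread between hearts. In the simulated data 80% of genes changed 2-fold were called. Those genes were drawn at random from all tested genes, so the share does not give the power for the members. The member differences were smaller than 2-fold.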

Other observations

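Within the Ctrl hearts, *Adcy6*, *Grk5*, *Adcy5*, *Pde3a* and *Adra1a* each separated the same 4 lower from the same 4 higher hearts. The members *Adrb1*, *Adra1b*, *Pde4d* and *Prkaca* did not. The pattern was noticed after the values were seen and was not tested. Replicates 1 to 4 were at 180 to 190 CPM for *Adcy6* and at 62.7 to 75.3 CPM for *Grk5*, and replicates 5 to 8 at 211 to 246 and at 84.4 to 96.3 CPM. In the same order, *Adcy5* was at 80.8 to 91.2 and 93.6 to 114 CPM. *Pde3a* was at 118 to 128 and 139 to 153 CPM, and *Adra1a* at 22.5 to 25.2 and 26.6 to 31.995 CPM. Of the called pathway genes that are not members, only *Kcnq1* split in this way, at 38.5 to 47.1 and 47.8 to 53.3 CPM. The summed leukocyte markers were at 257 to 283 CPM in replicates 1 to 4 and at 175 to 221 CPM in replicates 5 to 8. Replicates 5, 6 and 7 were female and replicate 8 male by *Xist* and Y-linked counts, and the labels give no batch. Their part in the spread of the Ctrl hearts was not tested.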
